A study of Mus musculus with 3 samples.

Results

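Plasmacytoid dendritic cells (pDCs) of the mouse spleen were examined in a single-cell RNA data set made from 1 pooled droplet capture. The cells were chosen by their own RNA counts and hashtag counts, so values of the genes used are given as descriptions. A barcode was taken as a pDC when it had 500 or more genes, at most 10% mitochondrial UMIs (unique molecular identifiers, 1 per captured RNA molecule), a leading hashtag at least 5 times the next one, 5 or more UMIs of Siglech and 3 or more of Klk1, Cox6a2 and Ly6d together. It also had no UMI of Xcr1, Clec9a, Clec4a4, Dtx1, Slc4a1 or Alas2 and at most 1 of Cd79a, which keeps out type 1 and type 2 conventional dendritic cells (cDC1s, cDC2s), erythroid cells and B cells. This rule found 1834 pDCs among 21547 kept cells (8.51%) with a median of 5169 UMIs and 1845 genes. All mice were C57BL/6. Spleen dendritic cells were obtained after 2 days of treatment by a density gradient, a sort for cells without GFP and magnetic negative selection, and each hashed sample carried its own hashtag antibody. There were 2 samples from leukemia-bearing mice given vehicle (D5W in the hashtag names), 2 from leukemia-bearing mice given panobinostat (LBH), 1 from wild-type (WT) mice given vehicle and 1 from WT mice given panobinostat. Panobinostat is an inhibitor of histone deacetylases. In that order the samples held 781, 175, 319, 102, 443 and 14 pDCs, and wherever 6 values are listed they follow it.

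Whether each hashed sample is a separate mouse is not given in the labels, so p-values measure the spread between these samples, which may be technical. No group has more than 2 samples and WT has 1 per treatment. Summed pDC depth ran from 723071 to 4628710 UMIs in 5 samples, while the 14 WT panobinostat pDCs gave 100467 UMIs, so that 1 UMI there stands for 9.95 CPM. Levels are in CPM, the UMIs of a gene per 1000000 gene UMIs summed over the pDCs of a sample, and differences are log2 values from edgeR's quasi-likelihood test with adjusted p-values over all genes tested. "Other cells" are the 18256 kept cells that are neither pDCs nor among the 1457 cells that failed the rule only at Xcr1 or Clec9a.

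pDCs are known for secreting type I interferon when the endosomal receptors Tlr7 and Tlr9 meet viral or self nucleic acid. Their identity rests on the E protein Tcf4, which is opposed by Id2, and mature pDCs carry the lectin Siglec-H and the surface protein Bst2. Resting pDCs hold less MHC class II and costimulatory protein than conventional dendritic cells.

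The label was checked against a list of 14 pDC markers, of which Siglech, Klk1, Cox6a2 and Ly6d belong to the rule. All 14 were higher in the pDCs than in the other cells, the 10 outside the rule included, and these 10 together stood at 9685 to 12141 CPM over the 6 samples against 1556 in other cells and 1763 in cDC1s. Ccr9, a homing receptor for gut and thymus, was found in 67.3% of pDCs after each cell was thinned to 2000 UMIs, against 3.99% of cDC1s and 1.13% of cDC2s. The 7 B cell markers outside the rule summed to 50.8 to 79.6 CPM against 2174 in B cells. The 5 T cell markers summed to 0 to 4.15 CPM with Cd3e at 0. The 6 cDC1 markers outside the rule summed to 94.2 to 209 CPM against 1751 in cDC1s. The 6 cDC2 markers outside the rule went the other way. They summed to 244 to 429 CPM in pDCs, above the 105 of the other cells and the 229 of cDC2s. Xcr1, Clec9a, Clec4a4, Dtx1, Slc4a1 and Alas2 are at 0 by the rule. The 4 erythroid markers outside the rule summed to 876 to 3426 CPM in pDCs against 14458 in other cells.

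Mature dendritic cell markers did not fall evenly over the samples. The 8 markers, among them the homing receptor Ccr7, the actin-bundling gene Fscn1 and the chemokine Ccl22, summed to 234, 99.5, 154, 243, 373 and 1423 CPM, against 1227 CPM in the other cells. pDCs with 3 or more of these UMIs made up 4.61, 1.71, 5.02, 6.86, 14.0 and 35.7% of the pDCs of the 6 samples, so both WT samples exceeded every leukemia sample. In WT panobinostat 1 cell of 24745 UMIs held 24.6% of all pDC UMIs and 104 UMIs of the mature markers. The 8 monocyte and macrophage markers summed to 569 CPM in WT vehicle and to 239 to 298 CPM elsewhere. No doublet caller was run. The hashtag step removes doublets of 2 samples but not doublets within a sample, and the part of such cells in the results was not tested beyond the fits without them given with each result.

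The edge of the rule mattered most at Clec9a, a lectin best known from cDC1s and known at a low level on mouse pDCs. 1457 kept cells failed only the condition that Xcr1 and Clec9a be 0, while 183 failed only at Siglech, 144 only at the erythroid genes, 87 only at Clec4a4 and Dtx1, 9 only at the sum of Klk1, Cox6a2 and Ly6d and 4 only at Cd79a. Of those 1457 cells, 1128 had no Xcr1, and 772 of them held exactly 1 Clec9a UMI. The 1128 resembled the pDCs in genes outside the rule. The 10 pDC markers outside the rule summed to 11644 CPM against 11432 in pDCs. Naaa, a cDC1 enzyme, was at 24.2 against 26.6, and Cadm1, a cDC1 adhesion gene, at 28.8 against 26.6. The other 329 cells, with Xcr1, had a median of 13398 UMIs. In the cells meeting all other pDC conditions, the 329 with Xcr1 included, 16.5% held Clec9a after thinning to 2000 UMIs. This was so for 40.9% of cDC1s, 3.30% of B cells and 6.87% of erythroid cells. The ratio of Clec9a to Xcr1 UMIs was 1.66 against 0.565 in cDC1s, 0.694 in B cells and 0.597 in erythroid cells. Without thinning, Xcr1 UMIs were in 34.8% of the erythroid cells. The source of the Clec9a UMIs was not tested. Just inside the Siglech threshold were 80 pDCs with 5 UMIs, and just outside it 34 cells with 4 that met all else. Results are therefore also given with Clec9a allowed, which makes 2962 pDCs. Their share by sample was 34.2, 19.3, 16.1, 8.26, 9.47 and 0.903% of kept cells.

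pDCs were a smaller share of kept cells in every panobinostat sample than in the vehicle samples of the same disease state. They made up 22.4% (95% Clopper-Pearson interval 21.0 to 23.8%) and 13.1% (11.3 to 14.98%) in the leukemia vehicle samples, a mean of 17.7% ± 6.57 (SD, n = 2). The leukemia panobinostat samples had 10.2% (9.18 to 11.3%) and 4.79% (3.92 to 5.78%), a mean of 7.50% ± 3.84 (SD, n = 2). WT vehicle had 5.23% (4.77 to 5.73%) and WT panobinostat 0.468% (0.256 to 0.784%). These intervals cover counting error only. The mean share with panobinostat was 0.424 times that with vehicle in leukemia and 0.0895 times in WT. Averaged over both disease states the share was 2.39 lower on the log2 scale, with an exact permutation p of 0.167 (two-sided, arrangements within disease state, 12 in all), which is the smallest p that this design allows. After Benjamini-Hochberg adjustment over 3 comparisons of this kind (the share and both antibody tags) the p was 0.50. With both leukemia arms alone the log2 difference was -1.29.

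The direction of the share against the other dendritic cells was less even. Of pDCs, cDC1s and cDC2s together, pDCs were 58.9, 32.5, 34.1, 16.5, 16.7 and 1.16%, and leukemia panobinostat 1 lay above leukemia vehicle 2. The exact permutation p with this denominator was 0.333. Among vehicle samples pDCs were a larger share in leukemia than in WT by 3.39 times, a difference that rests on 1 WT sample and was not tested. The shares follow a gradient, a sort and a magnetic selection, and loss of pDCs in the mouse and loss in these steps cannot be told apart.

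**Figure D1:**
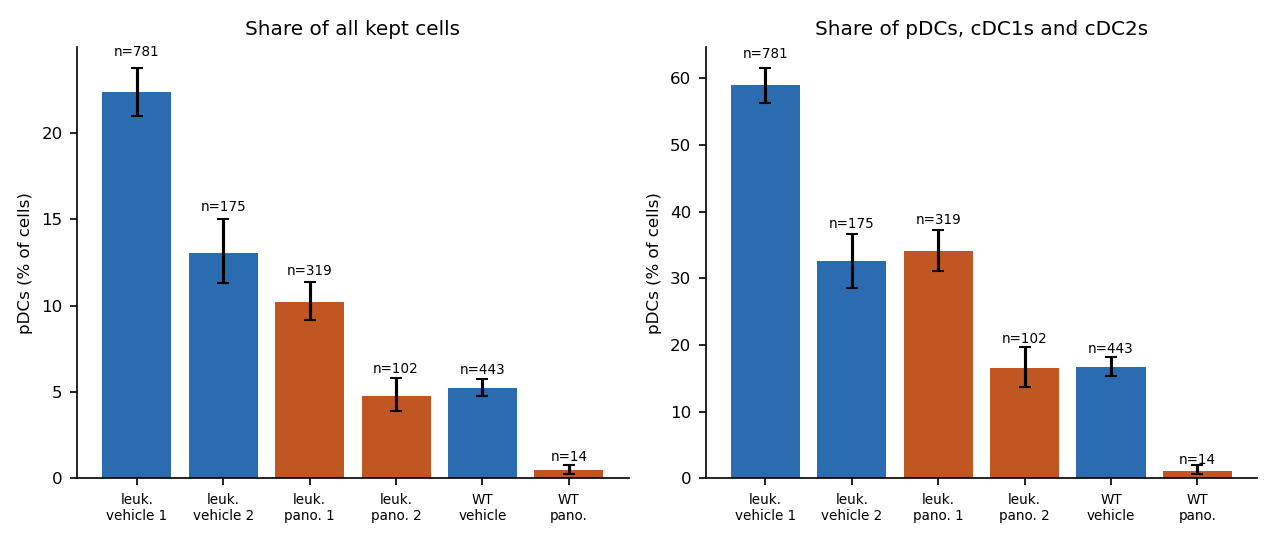
pDC share by hashed sample, in percent of all kept cells (left) and of pDCs, cDC1s and cDC2s (right). Bars are single samples, error bars are 95% Clopper-Pearson intervals for counting error, blue is vehicle and orange panobinostat, and n is the number of pDCs. WT panobinostat has the lowest share in both panels, 0.468% and 1.16%.

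The antibody tags measured surface protein on the same cells. The median Siglec-H tag count of pDCs was 461, 448, 429, 462.5, 466 and 462 UMIs, while medians in cDC1s, cDC2s, B cells and erythroid cells lay between 224 and 259.5 in all 6 samples. No pDC median overlapped any of these. Siglec-H protein therefore followed the rule's Siglech RNA in a readout that the rule did not use. The CD11c tag (Itgax protein, high on conventional dendritic cells) had medians of 387, 384, 398, 381, 454 and 499.5 UMIs in pDCs. It was 2735 to 3432 in cDC1s, 1953 to 3093.5 in cDC2s, 1111.5 to 2060 in erythroid cells and 128 to 241 in B cells, so that pDCs lay above B cells and below the other 3. The erythroid cells had a median of 16892 gene UMIs, and 34.8% held Xcr1 UMIs without thinning. The source of their CD11c tag counts was not tested. For neither tag did the test of treatment pass: the difference, panobinostat minus vehicle, was -6.38 UMIs for Siglec-H (exact permutation p = 0.667, two-sided, adjusted p = 0.667) and 24.8 UMIs for CD11c (exact permutation p = 0.50, adjusted p = 0.667).

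**Figure D2:**
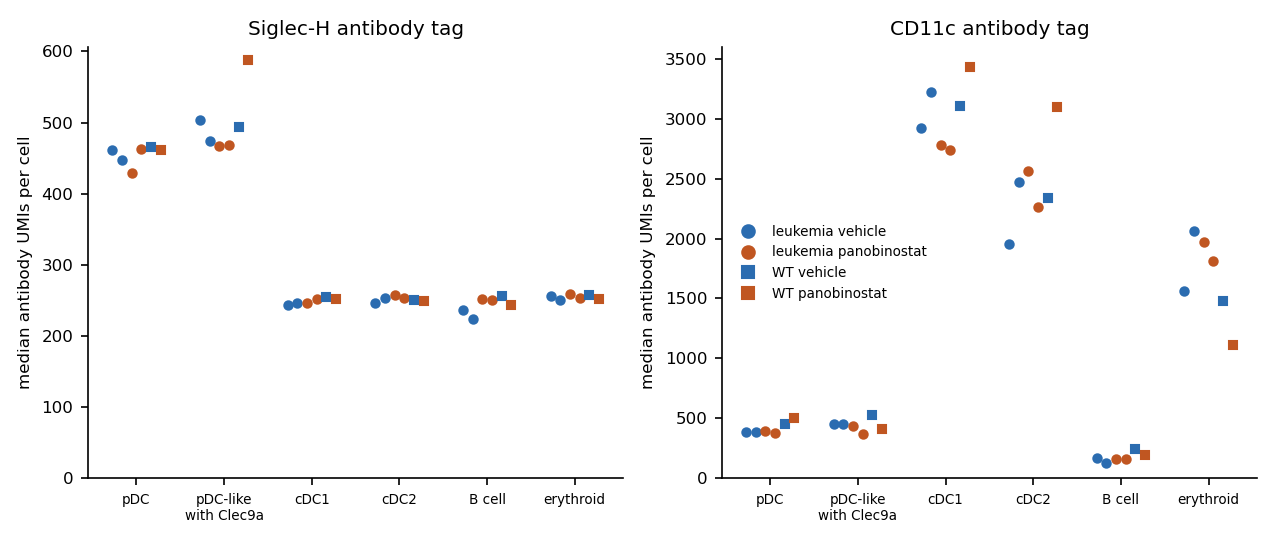
Median antibody tag UMIs per cell by cell class, for Siglec-H (left) and CD11c (right). Each point is 1 hashed sample, circles are leukemia and squares WT, blue is vehicle and orange panobinostat. pDC medians for Siglec-H lie between 429 and 466 and those of cDC1s between 243 and 255.

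The genes that led the pDCs over other cells are described without a test, because the rule chose the cells by related genes. Of 5715 genes outside the rule with 20 CPM or more, 13.9% were at least 2-fold higher in pDCs and 8.66% at least 2-fold lower. The 15 genes of 100 CPM or more with the highest ratio ran from Gm21762, a predicted gene at 770 CPM against 20.3 (37.8 times), to Slamf9, a SLAM family receptor at 139 CPM against 6.34 (21.9 times). Between them were Klk1b27, a kallikrein close in sequence to Klk1 (36.0 times), Sh3bgr (34.0), Atp2a1, a sarcoplasmic calcium pump (33.4), Mctp2 (33.1), the protease gene Ctsl (28.9), the sialic acid hydroxylase Cmah (27.2), Ly6c2 (27.1), the terminal transferase Dntt (26.7), Paqr5 (24.1), the sodium pump subunit Atp1b1 (24.0), the ureidopropionase Upb1 (23.9), Ccr9 (22.5) and the lectin Clec10a (21.97). Klk1b27 and Ly6c2 have near copies among which the counting could split reads. Over the 6 samples Ctsl was at 1529, 1432, 1735, 1447, 1408 and 1165 CPM, and Upb1 at 272 to 337 CPM.

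Transcription factors of the pDC lineage were high in all 6 samples. Tcf4 was at 1663, 1507, 1644, 1292, 1300 and 1264 CPM, against 89.6 CPM in the other cells and 18.5 in cDC1s. Runx2, needed for pDC migration out of the bone marrow, was at 497 to 620 CPM against 35.2, and Spib, an Ets factor, at 149 to 216 CPM against 18.8. Irf8 was shared with cDC1s, at 2086 to 2637 CPM in pDCs, 1268 in cDC1s and 72.6 in cDC2s. Bcl11a (338 to 526 CPM against 137), Zeb2 (249 to 414 against 99.4) and Irf7, the factor that drives interferon alpha genes (154 to 255 against 48.5), were also higher. Of 20 listed factors with 20 CPM or more, 10 were at least 2-fold higher in pDCs and 5 at least 2-fold lower. The lower 5 were Id2 (83.7 CPM against 591), Batf3 (29.3 against 232), Zbtb46 (3.96 against 35.3), Spi1 (98.3 against 328) and Relb (52.9 against 179), factors of conventional dendritic or myeloid cells.

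**Figure D3:**
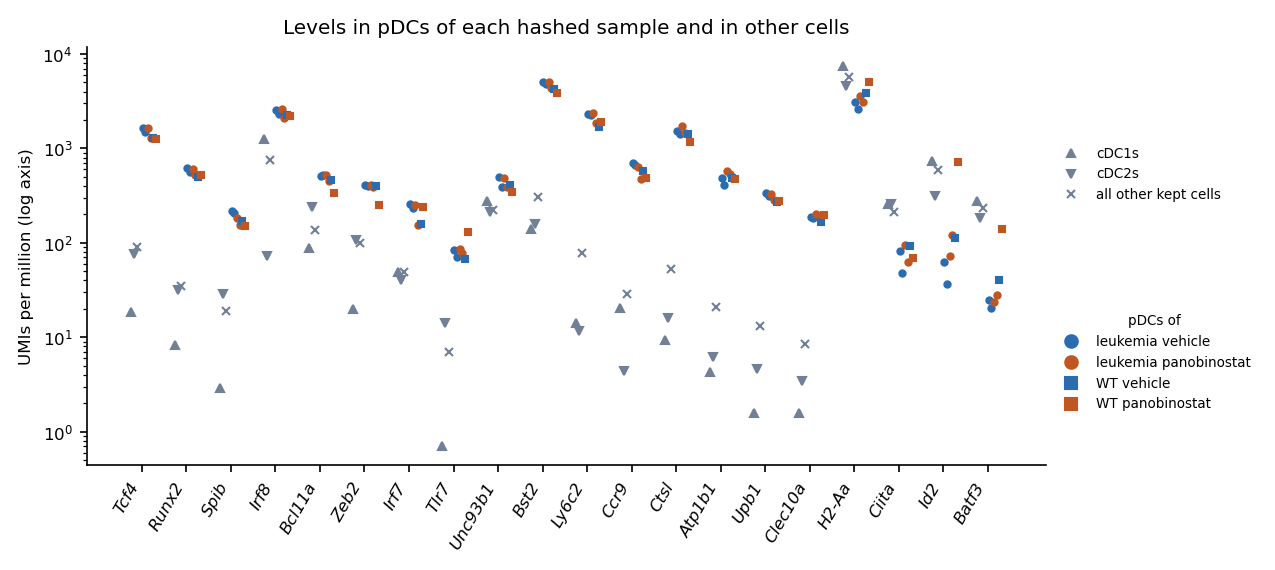
Levels of 20 genes in CPM on a log axis. Coloured points are the pDCs of each hashed sample (circles leukemia, squares WT, blue vehicle, orange panobinostat), and grey symbols are cDC1s, cDC2s and the other cells. The pDC points of Tcf4 lie between 1264 and 1663 and the grey symbols at 18.5 to 89.6, whereas Id2 has its highest pDC value, 717, in WT panobinostat.

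Surface and secretory genes separated the pDCs most as a group. Of 25 listed genes 22 were at least 2-fold higher than in other cells and 1 lower, with a median ratio of 4.05 on the log2 scale against 0.20 over all genes described. Bst2 was at 3892 to 5087 CPM against 307, the checkpoint receptor Lag3 at 188 to 255 against 24.5, and the receptor Cd300c at 249 to 333 against 16.5. The CD8 beta gene Cd8b1 stood at 372 CPM against 18.1, while Cd8a, which cDC1s also express, stood at 117 CPM against 469 in cDC1s.

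The endosomal receptors were detected at unequal levels. Tlr7 was at 84.3, 71.3, 85.9, 78.8, 67.2 and 129 CPM, against 0.697 in cDC1s. Unc93b1, which escorts these receptors to the endosome, was at 348 to 492 CPM against 222 in other cells, and Slc15a4, an endosomal transporter needed for the response, at 60.9 to 89.6 against 26.2. Tlr9 was seen in 2.40% of pDCs and in 0.82% after thinning, against 0.19% of cDC1s. Myd88, the adaptor of both receptors, was at 31.0 CPM against 25.3. Of 17 listed sensing genes with 20 CPM or more, 5 were at least 2-fold higher and 2 lower.

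Type I interferon transcripts were not detected in pDCs. The 19 type I interferon genes in the feature table gave 0 UMIs in the 1834 pDCs, which allows up to 0.164% of pDCs with such a UMI, and 8 UMIs in all kept cells outside the pDCs. Ifng gave 3 UMIs in pDCs. The receptor side was present: Ifnar1 was at 84.4 to 120 CPM against 28.5 in other cells and Ifnar2 at 199 to 283 against 57.7, with Stat2 at 46.7 to 69.7 against 16.1. Ifngr1, a chain of the interferon gamma receptor, was lower, at 34.1 CPM against 224. Of 52 listed interferon-stimulated genes with 20 CPM or more, 18 were at least 2-fold higher in pDCs and 8 lower.

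Genes of secretion, migration and antigen presentation were described in the same way. Of 32 listed endoplasmic reticulum genes 8 were at least 2-fold higher and 0 lower, among them the stress factor Xbp1 (214 CPM against 51.5) and the chaperone Hsp90b1 (985 against 440). Of 21 chemokine and cytokine receptors 12 were higher, such as Il7r (216 against 19.7) and Cxcr3 (67.1 against 15.8), and 2 were lower, one being Ccr7 (55.8 against 255). All 13 listed MHC class II genes could be described: 0 were at least 2-fold higher and 6 were lower, H2-Eb1 being at 1909 CPM against 5338. Cd86 (15.1 against 114) and Cd40 (12.6 against 55.3), 2 costimulatory genes, were lower too. Of 27 cell cycle genes 16 were at least 2-fold lower, Mki67 being at 59.8 CPM against 152.

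The pDCs varied among themselves in a few genes. With each cell thinned to 2000 UMIs (12 shallower pDCs were left out), the ratio of variance to mean over 1319 genes was highest for the globin gene Hbb-bs (19.1), the chemokine Ccl5 (17.0), Malat1 (11.6) and the chemokine Ccl4 (4.87), where counting alone gives about 1. Without thinning, Ccl5 UMIs were found in 39.4% of pDCs, and the 10% of cells with most held 86.8% of them. In leukemia vehicle 2 a single cell held 77.0% of the Ccl5 UMIs, so sample levels of this gene (286, 295, 213, 899, 530 and 2349 CPM) are set by few cells. Ccl4, also without thinning, was spread wider, with UMIs in 44.4% of pDCs and 65.5% of them in the 10% of cells with most. Next in the ratio after thinning came Hba-a1 (4.84), Cst3 (4.25), Cd74 (4.21) and Ly6d (4.06). These ratios pool the 6 samples and include differences between them. Cell cycle genes had a shorter upper range than in cDC1s: the median pDC held 2 of these UMIs per 2000 and the upper 5% held 7 or more, against 2 and 11 in cDC1s.

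Panobinostat was compared with vehicle over the 6 samples, with the disease state as a term. Of 8886 genes 1 was called (0.0113%), and it was higher with the drug. That gene was Iglc1 (ENSMUSG00000105906, GRCm38 chr16:19061618-19062071, minus strand, an immunoglobulin lambda constant gene), at 22.04, 22.004, 71.7, 91.3, 15.3 and 79.6 CPM. The 3 panobinostat samples did not overlap the 3 vehicle samples. Such an order, given here and for genes below, describes the values by which a gene was chosen and is no further support. The log2 difference was 1.92 (SE 0.21, adjusted p = 0.000986), a 3.79-fold rise. DESeq2 also called Iglc1 alone. It was not called with 10 or more Siglech UMIs required (1.55, adjusted p = 0.211) or without leukemia vehicle 1 (2.02, adjusted p = 0.0664), and was called in the other 20 of 22 alternatives. Its neighbours are Iglc3, at 1157, 1147, 1381, 1261, 983 and 926 CPM, and Iglc2, at 129 to 200 CPM. Whether reads of Iglc1 were split with them was not tested, and the value is uncertain. In the other cells Iglc1 was at 531, 11.6, 21.8, 15.6, 45.4 and 350 CPM. Plasma cell markers in pDCs summed to at most 15.3 CPM. The source of the Iglc1 UMIs in pDCs was not tested. UMIs of Iglc1 were in 7.30, 9.14, 17.9, 23.5, 6.77 and 35.7% of pDCs without thinning.

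The gene lists gave no further call with panobinostat in the fit of all 6 samples. Of all genes, 128 were higher and 89 lower at an unadjusted p under 0.05. The 20 lineage factors tested had 0 called and a median log2 difference of 0.01, against -0.02 over all genes tested. The log2 difference was -0.08 for Tcf4 (95% interval -0.29 to 0.12), -0.03 for Irf8 (-0.23 to 0.16) and -0.08 for Bst2 (-0.23 to 0.07). Tlr7 had 0.21 (-0.19 to 0.60), Irf7 had -0.08 (-0.48 to 0.31) and Ifnar1 had -0.14 (-0.50 to 0.22). Of 65 interferon-stimulated genes tested 0 were called, 28 had a positive difference, and the median was -0.03. The 20 tested genes of a list of reported deacetylase inhibitor responses had 0 called and a median of 0.07, the 13 histone deacetylases 0 and a median of -0.08, and the 23 apoptosis genes 0 and a median of 0.12. MHC class II genes had 0 of 13 called, 10 with a positive difference and a median of 0.16. For the 1306 genes with a mean of 100 CPM or more the 95% interval of the difference reached 0.30 to either side at the median gene, a fold of 1.23. Smaller changes are not resolved at this depth and number of samples.

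A few pDC genes separated the leukemia samples by treatment without passing in that fit. They were chosen after their values were seen, because fits with fewer cells or samples called them. Slpi, a secreted protease inhibitor, was at 132, 150, 283, 420, 183 and 119 CPM: both leukemia panobinostat samples were above the other 4, and WT panobinostat was the lowest. Its log2 difference was 1.01 (SE 0.24, adjusted p = 0.764), and 1.31 without WT panobinostat (adjusted p = 0.00206). Pir, which codes for the iron-binding protein pirin, was at 75.6, 57.2, 122, 169, 70.8 and 109 CPM, with no overlap between treatments, and had 0.99 (SE 0.19, adjusted p = 0.383). With Clec9a allowed Pir was called (1.01, adjusted p = 0.0256).

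Gpm6b, a membrane proteolipid gene, was at 59.4, 60.7, 100, 124, 67.9 and 69.7 CPM and Rad51b, a DNA repair gene, at 14.7, 7.92, 40.1, 40.1, 31.3 and 19.9 CPM. Cd8b1 was lower in the leukemia panobinostat samples, at 408, 465, 272, 176, 390 and 488 CPM. With pDCs of 3 or more mature marker UMIs or 2 or more macrophage marker UMIs left out, 9 of 8581 genes were called (0.105%), 7 higher (0.0816%) and 2 lower (0.0233%). These were Iglc1, Slpi, Pir, Rad51b, Gpm6b, Ccr2 and Apoe, which rose, and Cd8b1 and Pgam2, which fell. In that fit WT panobinostat is 9 cells. The adjusted p-values of that fit are not on a par with those over all pDCs. For Iglc1 the difference went from 1.92 to 1.83 and the SE from 0.21 to 0.22. The adjusted p by edgeR nevertheless went from 0.000986 to 2.65e-10. Both fits hold the same 6 samples, so the smaller p-values do not come from more replication.

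**Figure D4:**
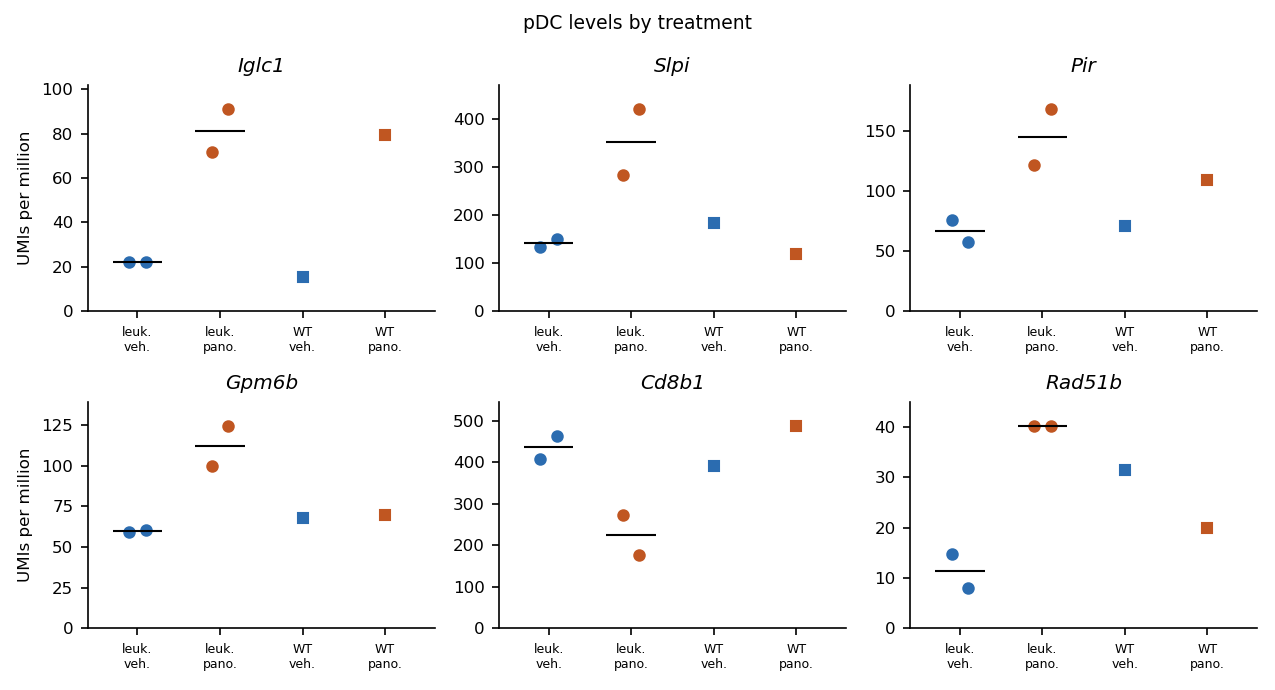
pDC levels of 6 genes in CPM by group, with the axis from 0. Points are hashed samples (circles leukemia, squares WT, blue vehicle, orange panobinostat) and black lines the mean of 2 samples. Only Iglc1 was called over all 6 samples. Its panobinostat values lie at 71.7 to 91.3 and its vehicle values at 15.3 to 22.04.

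Leukemia was compared with WT with the treatment as a term. Of 8886 genes 28 were called (0.315%), 5 higher in leukemia (0.0563%) and 23 lower (0.259%). The 4 higher genes outside the rule were Ifi27l2a, Lgals1, Hsd11b1 and Anxa2, and for each of them all 4 leukemia samples exceeded both WT samples. This order describes the values that gave the calls. Klk1, a gene of the rule, is given without a test: it stood at 1080, 1161, 1194, 1506, 739 and 537 CPM.

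Ifi27l2a (GRCm38 chr12:103442167-103443680, minus strand), an interferon-inducible gene, was at 1070, 1229, 1176, 1228, 613 and 478 CPM, a log2 difference of 1.022 (SE 0.12, adjusted p = 0.00133). Lgals1 (chr15:78926725-78930465, plus strand), which codes for galectin-1, a secreted sugar-binding protein, was at 1614, 1724, 1463, 1279, 1034 and 876 CPM, a difference of 0.66 (SE 0.10, adjusted p = 0.00787). Hsd11b1 (chr1:193221634-193264075, minus strand), an enzyme that regenerates active glucocorticoid, was at 67.6, 52.8, 61.5, 69.2, 20.6 and 19.9 CPM, a difference of 1.58 (SE 0.24, adjusted p = 0.00787). Hsd11b1 stood at 52.4 CPM in pDCs against 1.80 in other cells and 0.203 in cDC1s. Anxa2 (chr9:69453620-69491795, plus strand), a membrane-binding annexin, was at 115, 116, 111, 106, 57.1 and 49.8 CPM, a difference of 1.01 (SE 0.18, adjusted p = 0.0263).

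These 4 were also called with the pDCs of mature or macrophage markers left out (Ifi27l2a 0.90, Lgals1 0.64, Hsd11b1 1.69, Anxa2 1.29), with Clec9a allowed and without WT panobinostat. Ifi27l2a was called in all 21 alternatives, Lgals1 and Hsd11b1 in 18 each and Anxa2 in 14. Without WT vehicle the adjusted p was 0.0664 for Lgals1, 0.505 for Hsd11b1 and 0.491 for Anxa2. Lgals1 was also lost without leukemia vehicle 2 (0.0513), Hsd11b1 without leukemia vehicle 1 (0.0842), and Anxa2 without either leukemia vehicle sample (0.135 and 0.169) or leukemia panobinostat 1 (0.0588). Interferon-stimulated genes as a list had 51 of 65 members with a positive difference and a median of 0.19, against 0.02 over all genes tested. Of the 65, 1 was called higher (Ifi27l2a) and 1 lower (Epsti1), and 13 against 1 passed an unadjusted p under 0.05, where 123 against 227 of all 8886 genes did.

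The 23 lower genes held 3 of 13 MHC class II genes: Cd74, the invariant chain, H2-Aa and H2-Eb1, which code for an alpha and a beta chain. H2-Aa was at 3092, 2626, 3563, 3109, 3900 and 5036 CPM (-0.53, SE 0.08, adjusted p = 0.0119), H2-Eb1 at 1804, 1443, 1837, 1708, 2276 and 3653 CPM (-0.76, SE 0.11, adjusted p = 0.00787) and Cd74 at 9070, 8000, 10177, 9038, 10978 and 14094 CPM (-0.465, SE 0.07, adjusted p = 0.00787). Both WT samples exceeded all 4 leukemia samples in each. All 13 listed genes had a negative difference, with a median of -0.465, against 0.02 over all genes tested. Mature marker levels were also higher in both WT samples, as given above. The part of such cells in this difference was not tested beyond a fit without them. With the mature and macrophage marker cells left out the 3 genes kept their direction and none was called. H2-Aa had -0.36 (adjusted p = 0.293), H2-Eb1 -0.39 (adjusted p = 0.277) and Cd74 -0.25 (adjusted p = 0.999). Without the deepest WT panobinostat cell all 3 were called, with H2-Ab1 (H2-Aa -0.39, adjusted p = 0.0491). Without the whole WT panobinostat sample none was (adjusted p = 0.12, 0.131 and 0.118 for H2-Aa, H2-Eb1 and Cd74). By DESeq2 H2-Eb1 was called, and H2-Aa and Cd74 were not (adjusted p = 0.0501 and 0.0814). After thinning to 2000 UMIs H2-Eb1 was still called by edgeR. H2-Aa (-0.34, adjusted p = 0.138) and Cd74 (-0.23, adjusted p = 0.579) were not. With a hashtag ratio of 10 or more edgeR called none of the 3 (adjusted p = 0.825, 0.102 and 0.945 for H2-Aa, H2-Eb1 and Cd74). H2-Aa was also lost without leukemia vehicle 2 (0.0675) and H2-Eb1 without leukemia panobinostat 1 (0.0567).

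The promoters of the 2 chain genes are shown because they moved together and share a short motif. The windows are from RefSeq on GRCm38.p6, 250 bases before to 50 after the gene start, 5′ to 3′ on the gene's strand, with TGATTGG (an inverted CCAAT box with flanking bases, the core of the Y box known from MHC class II promoters) in capitals. H2-Aa lies at chr17:34287774-34288073 on the minus strand and H2-Eb1 at chr17:34305617-34305916 on the plus strand.
H2-Aa: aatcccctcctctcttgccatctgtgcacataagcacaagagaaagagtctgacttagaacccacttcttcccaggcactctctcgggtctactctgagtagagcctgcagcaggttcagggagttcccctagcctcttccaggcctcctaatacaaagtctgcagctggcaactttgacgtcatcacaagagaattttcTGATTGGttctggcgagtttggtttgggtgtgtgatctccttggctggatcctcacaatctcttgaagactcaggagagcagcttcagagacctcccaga
H2-Eb1: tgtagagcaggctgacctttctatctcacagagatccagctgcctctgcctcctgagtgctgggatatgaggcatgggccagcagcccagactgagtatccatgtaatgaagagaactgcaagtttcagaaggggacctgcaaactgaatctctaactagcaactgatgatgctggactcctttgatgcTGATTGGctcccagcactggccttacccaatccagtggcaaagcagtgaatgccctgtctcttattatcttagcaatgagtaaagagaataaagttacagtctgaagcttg
The motif starts 50 bases before the gene start in H2-Aa and 61 before it in H2-Eb1. On either strand it was found in 7.82% of all 32851 windows of this length and in 7 of the 9 listed MHC class II genes that have a window, H2-DMa and Ctss being the other 2. A match describes the letters only.

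The lower genes with the largest differences and 20 CPM or more were Lyz2 (-2.82), H2-M2 (-2.61), Cd63 (-2.30), Hspa1a (-2.10), Id2 (-1.88), Fscn1 (-1.87), Tbc1d4 (-1.75), AW112010 (-1.70), Epsti1 (-1.53), Basp1 (-1.47), Relb (-1.38) and Etv3 (-1.37). In 11 of these 12 WT panobinostat had the highest level, Lyz2 being the exception. The remaining lower genes were Ccl22, C1qc, Apoe, Cst3, Tmsb4x, Malat1, Ftl1, Dusp1 and the 3 MHC class II genes. The list included several known from other cell types. Lyz2, a lysozyme of macrophages and monocytes, was at 28.5, 20.2, 36.1, 20.7, 247 and 39.8 CPM, and 1 WT vehicle cell held 46.4% of that sample's Lyz2 UMIs. Apoe and the complement gene C1qc are also known from macrophages. Without thinning, Apoe UMIs were in 29.7% of all pDCs and C1qc UMIs in 0.818%. Fscn1, Ccl22 and Relb are known from mature dendritic cells, and Id2, called lower (-1.88, adjusted p = 0.0206), was at 62.0, 37.0, 71.7, 120, 112 and 717 CPM, with 76.4% of the WT panobinostat UMIs in 1 cell. With mature and macrophage marker cells left out, 14 of 8581 genes were called (0.163%), 7 higher and 7 lower in leukemia (0.0816% each), and 5 of the 27 genes outside the rule were among them, Klk1 being a further shared gene. By its construction that fit removes the cells that carry these markers.

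A stress gene and a pair of lectins were also called with those cells left out. Hspa1a, a heat shock chaperone with a near copy in Hspa1b, was at 163, 224, 118, 162, 363 and 1513 CPM (-2.10, SE 0.36, adjusted p = 0.0201). With the marker cells left out, a fit whose small p-values have the limit given above, it had -1.80 (adjusted p = 2.17e-13). Without WT panobinostat its difference was -0.96 (adjusted p = 0.0469), and it was not called by DESeq2 (adjusted p = 0.174) or without leukemia panobinostat 1 (adjusted p = 0.0888). Cd209a and Cd209d, C-type lectins, were at 189, 169, 221, 217, 322 and 209 CPM and at 365, 316, 515, 257, 634 and 498 CPM. They were chosen after their values were seen. With the marker cells left out they were called at -0.83 (adjusted p = 0.00053) and -0.90 (adjusted p = 1.56e-05), but not over all pDCs (adjusted p = 0.243 and 0.408). Cd209a was also called without WT panobinostat (adjusted p = 0.0192). Among panobinostat samples both leukemia levels of Cd209a lay above the WT level, against the direction of the difference, and without WT vehicle its log2 difference was 0.09.

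**Figure D5:**
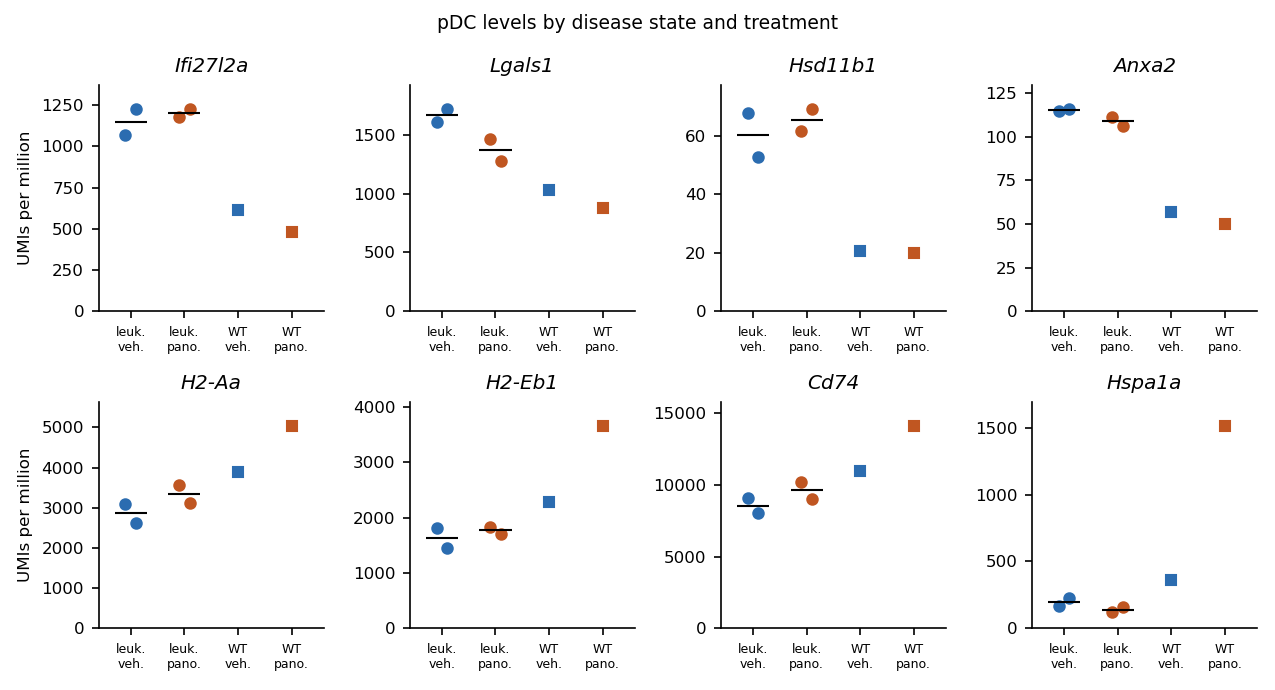
pDC levels of 8 genes in CPM by group, with the axis from 0. Points are hashed samples (circles leukemia, squares WT, blue vehicle, orange panobinostat) and black lines the mean of 2 samples. In the upper row all leukemia values exceed both WT values (Ifi27l2a 1070 to 1229 against 478 and 613), and in the lower row both WT values exceed all leukemia values.

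The response of pDCs to panobinostat was compared with that of cDC1s and cDC2s of the same hashed samples, with the sample as a block. Fitted alone, cDC1s had 100 of 10909 genes called with panobinostat (0.917%), 82 higher (0.752%) and 18 lower (0.165%), and cDC2s 6 of 6499 (0.0923%), all 6 higher. Against cDC1s, 6 of 11316 genes differed (0.053%), 2 with a higher response in pDCs (0.0177%) and 4 with a lower one (0.0353%). Lgals1 rose in cDC1s by 1.08 (SE 0.09) and had -0.26 (SE 0.09) in pDCs, a difference of -1.32 (SE 0.13, adjusted p = 1.1e-07). Ly6a, a surface protein of the Ly6 family, rose in cDC1s by 0.92 and had -0.04 in pDCs. Its level was 1351 to 1971 CPM in pDCs and 49.1 in cDC1s. Serpinb1a, a protease inhibitor, rose in cDC1s by 1.67 and had -0.11 in pDCs. Its level in pDCs was low, at 6.61 to 39.8 CPM, where 1 UMI in WT panobinostat stands for 9.95 CPM. A change of Serpinb1a in pDCs is therefore poorly resolved. Iglc1 and Id2 had the higher response in pDCs, and Id2 in WT panobinostat pDCs rests on the 1 cell described above. The number of genes called against cDC1s ran from 5 (without WT vehicle) to 43 (without leukemia panobinostat 1) with 1 sample left out at a time.

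Against cDC2s 0 of 8118 genes differed by edgeR, with 112 higher and 132 lower at an unadjusted p under 0.05; edgeR with median-ratio factors also gave 0, and with 1 sample left out the count was 1 to 17.

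The difference of the panobinostat response between leukemia and WT was fitted with 2 residual degrees of freedom. Both WT arms are 1 sample each, so the spread comes from the leukemia pairs alone and the WT samples are assumed to vary like them. Of 9653 genes 13 were called (0.135%), all with a lower response in leukemia, and 1 without a single WT panobinostat cell. Each of the 13 had its highest count among WT panobinostat pDCs in the same 1 cell of 24745 UMIs. For Gclc, an enzyme of glutathione synthesis, the WT panobinostat level was 348 CPM with that cell and 26.4 CPM without it, against 36.2 in WT vehicle. For Cst3, a cysteine protease inhibitor high in conventional dendritic cells, it was 8580 CPM with the cell and 2271 without it. Hspa1a changed little, from 1513 to 1506 CPM, and was the 1 gene still called without that cell. No gene was called by edgeR with mature and macrophage marker cells left out (453 higher and 90 lower at an unadjusted p under 0.05).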

How the data were processed

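The submitters' 3 libraries (gene expression, hashtags, antibody tags) of 1 capture were read from 1 deposited matrix of whole UMI counts per feature and barcode, per the file headers, which holds 38717 distinct barcodes shared by the 3 libraries. The submitters' processing notes name Cell Ranger 3.1.0, Seurat 3.1.0 and the builds mm10 and GRCm38, with no role or order given. Nothing was realigned.

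Of 38717 barcodes 36904 met the gene and mitochondrial limits and 21547 also the hashtag limit. Of 2710 barcodes meeting the marker rule 67.7% passed the hashtag step. UMIs were summed per hashed sample and cell class (cDC1s, cDC2s, B and erythroid cells by marker counts) and tested with edgeR 4.0.16 (TMM, low counts filtered by filterByExpr, R 4.3.3), with disease state and treatment as terms. DESeq2 1.42.0 was an alternative. A call is an adjusted p under 0.05 (Benjamini-Hochberg over all genes tested). TMM factors were 0.991 to 1.01, and the common biological coefficient of variation was 11.4%. The fit was tested on simulated data. Per-cell shares were thinned to 2000 UMIs where this is stated, and medians and exact permutation tests used Python 3.11.15. Positions are from GENCODE vM21.

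Named genes are the 12 with the largest difference per direction among called genes of 20 CPM or more, up to 4 called members per list and direction, 18 lineage, sensing and interferon receptor genes, and the 15 leading pDC genes. A few genes that the rule or lists would name are not reported here. Other genes named are list members, descriptions or marked as chosen after their values were seen. The members and the 21 lists were chosen with earlier results of these data known. Fits with Clec9a allowed, without marker-bearing cells and without the deepest WT panobinostat cell were added after seeing the data.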

Additional observations from a re-analysis of the deposited data

Results flagged for a closer look

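The test of the difference in panobinostat response between leukemia and WT called 13 genes over all pDCs. It rests on 1 sample per WT arm, and 1 gene, Hspa1a, was called without the deepest WT panobinostat cell and 0 with marker cells left out (edgeR, 453 higher and 90 lower at an unadjusted p under 0.05). The log2 differences (leukemia minus WT) were -3.59 for Gclc, -2.50 for Hspa1a, -1.12 for Cst3, -5.41 for the costimulatory receptor Tnfrsf4, -1.21 for the actin gene Actg1, -3.10 for the tetraspanin Cd63, -1.64 for Epsti1, -1.26 for Crip1, -2.40 for vimentin (Vim), -2.62 for Marcksl1, -0.99 for the ferritin light chain Ftl1, -1.91 for Basp1 and -4.40 for Asprv1. The single deepest cell held 95.8% of the WT panobinostat pDC UMIs of Tnfrsf4, and 38 of 152 UMIs of Hspa1a, the smallest share among these genes.

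The response differed between pDCs and cDC1s for 6 genes, of which 5 are given. The log2 differences (pDCs minus cDC1s) were -1.32 for Lgals1, 2.07 for Iglc1, -0.98 for Ly6a, 1.29 for Id2 and -2.01 for Serpinb1a. All 6 were also called with Clec9a allowed. Groups of 1 or 2 samples were too small for a test of single outlying samples.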

How the results depend on the processing

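The number of genes called with panobinostat (1 over all pDCs) was 16 with no filter on low counts, 2 with a hashtag ratio of 3 or more, 0 with 10 or more Siglech UMIs, 9 after thinning to 2000 UMIs, 11 with pDCs over 15000 UMIs left out, 2 with Clec9a allowed, 9 with mature and macrophage marker cells left out, 3 without the deepest WT panobinostat cell, 2 in leukemia samples alone, 3 with Clec9a allowed and WT panobinostat left out, and 1 to 5 with 1 sample left out. At the 0, edgeR gave 100 genes higher and 86 lower at an unadjusted p under 0.05. The 5 is without leukemia panobinostat 2, and without leukemia panobinostat 1, WT vehicle or WT panobinostat it was 2, 2 and 3. The number that differed by leukemia (28) was 102 with no filter, 11 and 52 with hashtag ratios of 10 and 3, 16 with a Siglech minimum of 10 or of 3, 95 with pDCs over 15000 UMIs left out, 61 with Clec9a allowed, 14 with marker cells left out, 99 in vehicle samples alone, 52 with Clec9a allowed and WT panobinostat left out, and 14 to 63 with 1 sample left out, each of the 6 samples moving it by over 1.5 times. The interaction count (13) was 4 with Clec9a allowed, 1 without the deepest WT panobinostat cell and 0 with marker cells left out (453 higher and 90 lower at an unadjusted p under 0.05). Against cDC1s the count (6) was 24 with Clec9a allowed and 5 to 43 with 1 sample left out, and against cDC2s (0) it was 3 and 1 to 17. The cause was not tested. With DESeq2 the leukemia count was 33, of which 20 were shared. Over 44 single-gene differences and their settings, 733 values stayed on the same side of the threshold, 139 fell below it, 53 rose above it, and Malat1 by leukemia changed sign (0.0092 with marker cells left out). The share kept its direction in all settings, from -2.66 to -1.29 on the log2 scale. The labels do not say whether same-numbered leukemia vehicle and panobinostat samples belong together (same-numbered deviations correlated at 0.357, with 2 pairs). With the number as a replicate block in leukemia samples alone, 6 genes were called with panobinostat, against 2 without the block. WT panobinostat, with 14 pDCs and 100467 UMIs, limits every result that includes WT.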
